A study of Homo sapiens with 6 samples.

Results

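HT1080 cells carrying a vector against MT1-MMP were compared with mock cells on 4 of the 6 arrays of the series. HT1080 is a line established from a human fibrosarcoma, a malignant tumour of connective tissue. Mock cells had been transfected with the pGUS vector, which gave them green fluorescent protein (GFP) and nothing else. In the MT1-MMP siRNA cells the same vector gave GFP and a small interfering RNA (siRNA) directed at the mRNA of MT1-MMP. Both groups therefore carry the vector and GFP. The 4 arrays are those titled for the mock vector and for MT1-MMP, numbered 1 and 2 in each group. The remaining arrays of the series hold cells with another siRNA, titled alpha3. They enter only where all 6 arrays are named. The arrays held 22283 probe sets, of which 19065 carried 1 gene symbol, and 8061 genes passed the filter on dim signal and were tested. Nothing in the labels says that paired arrays hold RNA of independent cultures, and the p-values then reflect the spread among 4 hybridisations, possibly a technical one.

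MMP14 encodes MT1-MMP, a matrix metalloproteinase held in the plasma membrane, where it cuts fibrillar collagen and other matrix proteins next to the cell. It also activates the soluble gelatinase MMP2, in a complex in which the inhibitor TIMP2 serves as the bridge. HT1080 cells are a common model for invasion because they make MT1-MMP themselves. The comparison asks which RNAs differed in level between cells with and without the siRNA.

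Median signals ranged from 74.8 to 83.1. Ratios of 3' to 5' probe sets, a sign of RNA integrity, lay between 0.879 and 0.935 for GAPDH and between 0.854 and 1.01 for actin. Across all genes tested, arrays of a group correlated at 0.964 for mock and 0.965 for MT1-MMP siRNA, and arrays of different groups at 0.925 to 0.958. Genes are not independent replicates. The median absolute difference between the 2 mock arrays was 0.22 on the log2 scale, and between the 2 siRNA arrays 0.23, and the median absolute log2 fold change between the group means was 0.24. The spiked hybridisation controls, RNAs added to every sample, were brighter with siRNA. Relative to the mean of the mock arrays, their median was 2.30 and 1.29 with siRNA, and 0.927 and 1.07 in mock cells. Their part in the differences below was not tested.

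Most defining markers of other cell types were near background. Of the 7 endothelial markers measured, 6 lay under the filter signal of 48.5 on every array, and the summed endothelial signal was 132 to 216 in mock cells and 134 to 176 with siRNA. Of the 6 epithelial markers 4, and of the 6 smooth muscle and pericyte markers 4, lay under it on every array. Keratin 8 (KRT8) and smooth muscle actin (ACTA2) made up most of the sums of those lists. ACTA2 had signals of 443 and 587 in mock cells and 1003 and 795 with siRNA. Of the 6 leukocyte markers measured, only 2 lay under it on every array. The summed leukocyte signal was 612 to 1023 in mock cells and 509 to 690 with siRNA. Most of it came from LCP1, an actin-bundling protein that many tumour lines make. The 3 erythroid markers summed to 140 to 141 and 160 to 172. The fibroblast markers, by contrast, summed to 18607 and 23347 in mock cells and to 32862 and 26317 with siRNA. Vimentin (VIM) was the largest term on every array, and the sum includes MMP14, the target itself. Other members were dim. S100A4 had 49.3 and 89.7 in mock cells and 71.5 and 32.5 with siRNA, and THY1 had 111 and 105 against 99.5 and 70.9.

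MMP14 was lower with its siRNA on both arrays. Its signal was 1971 and 3064 in the mock cells and 812 and 717 with MT1-MMP siRNA. The groups did not overlap, and the mock arrays differed from each other more than the siRNA arrays did. The log2 fold change was -1.65 (SE 0.238, n = 2 and 2), and limma's adjusted p over all genes was 0.0911, which did not pass the threshold of 0.05. Leaving out 1 array at a time gave values from -1.96 to -1.33. The 4 probe sets of MMP14 were lower by different amounts, with log2 fold changes of -1.65, -1.39, -2.20 and -1.49. In the bulk RNA of an array, fewer cells holding a transcript and less of it in each cell cannot be told apart.

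The partners of MT1-MMP gave a mixed picture. Of 20 tested, MMP14 among them, 14 lay above 0 and 6 below, with a median log2 fold change of 0.27 against 0.0071 over all 8061 genes, and none passed the adjusted threshold. The median was 0.16 without MT1-MMP siRNA replicate 1 and 0.17 without mock replicate 1. MMP2, the gelatinase that MT1-MMP activates, had signals of 430 and 672 in mock cells and 1271 and 1066 with siRNA, a log2 fold change of 1.07 (adjusted p = 0.147). The inhibitor of metalloproteinases TIMP3 went from 156 and 70.1 to 478 and 527 (log2 fold change 1.95, adjusted p = 0.0911), and its 4 probe sets lay between 1.80 and 3.01. Both genes were separated between the groups. RECK, a membrane-anchored inhibitor of MT1-MMP, had 123 and 165 against 336 and 279 (0.96). TIMP2, the bridge to MMP2, overlapped between the groups, at 258 and 364 against 387 and 341 (0.22, and -0.00098 without mock replicate 1). TIMP1 overlapped as well, at 2018 and 2545 against 3387 and 2530 (0.36, and 0.16 without MT1-MMP siRNA replicate 1).

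Among surface proteins that MT1-MMP cuts or sits beside, the hyaluronan receptor CD44 had 3735 and 4394 in mock cells and 7318 and 6665 with siRNA (log2 fold change 0.78), although its 7 probe sets ranged from 0.04 to 0.92. The membrane protease ADAM9 was at 889 and 1118 against 1670 and 1372 (0.59). The scavenger receptor LRP1 and integrin alpha V (ITGAV) were higher on both siRNA arrays by smaller amounts, with log2 fold changes of 0.57 and 0.39. LRP1 was at 0.28 without mock replicate 1 and ITGAV at 0.25 without MT1-MMP siRNA replicate 1. Syndecan 1 (SDC1), a shed proteoglycan, overlapped between the groups, at 2246 and 2547 against 1056 and 2346 (-0.59, and -0.03 without MT1-MMP siRNA replicate 1). The proprotein convertases, which cut the propeptide from MT1-MMP, lay near 0. FURIN had 234 and 222 against 215 and 258 (0.04), PCSK5 and PCSK6 overlapped between the groups, and PCSK7 was lower (-0.57, adjusted p = 0.231). Of the nuclear and cytoplasmic machinery of RNA interference, 10 genes were tested, with 5 above 0 and 5 below and a median of 0.011. The median lay between -0.10 without mock replicate 2 and 0.090 without mock replicate 1. The nuclease DROSHA was the lowest, at 533 and 703 against 428 and 423 (-0.49, and -0.30 without mock replicate 2).

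Over all genes, 8 of 8061 passed the adjusted threshold (0.0992%), 7 higher and 1 lower with MT1-MMP siRNA. The 7 that rose encode TGFA, EFNB3, NR4A2, HTRA1, SERPINE2, BEX1 and GSPT2, and the 1 that fell is MRTO4. EFNB3, NR4A2 and GSPT2 were under the filter signal in mock cells and could be called higher only. The count depended on the setting, and was 0 with no filter and 0 with all 6 arrays. A fit without 1 array leaves a single array in a group, so its calls cannot be set against this count. Such fits, each with its own brightest probe set, gave log2 fold changes of 1.87 to 1.99 for TGFA and 2.19 to 2.30 for EFNB3. They gave 2.52 to 2.95 for NR4A2, 1.90 to 2.56 for HTRA1 and 1.81 to 2.41 for SERPINE2. For BEX1 they gave 1.88 to 2.40, for GSPT2 1.78 to 1.92 and for MRTO4 -1.74 to -1.65. In all, 40 genes had an adjusted p under 0.1.

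TGFA, transforming growth factor alpha, a ligand of the EGF receptor, had signals of 522 and 534 in mock cells and 2194 and 2023 with siRNA. The 2 mock arrays and the 2 siRNA arrays were each close together and far from the other pair. The log2 fold change was 1.93 (SE 0.170, limma adjusted p = 0.0375). Its 2 dimmer probe sets went the same way, one from 9.5 and 8.1 to 257.8 and 301.7 and the other from 168.2 and 128.7 to 291.6 and 330.3.

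EFNB3, ephrin B3, a membrane-bound ligand of Eph receptors, had 22.6 and 22.8 in mock cells and 237 and 218 with siRNA. The mock values lay under the filter signal, so the fold change of 2.24 on the log2(signal + 32) scale (SE 0.205, limma adjusted p = 0.0375) understates the ratio. NR4A2, an orphan nuclear receptor of the early response class, also started under the filter signal, at 33.2 and 29.1, and reached 585 and 329 (log2 fold change 2.90, SE 0.278, limma adjusted p = 0.0375). Its 3 probe sets lay between 2.18 and 2.90. GSPT2, a translation release factor, had 26.9 and 21.3, again under the filter signal, against 169 and 172 (1.85, SE 0.213, limma adjusted p = 0.0482). GSPT2 is similar in sequence to GSPT1, so their signals can be mixed, and GSPT1 lay lower at 1119 and 1019 against 598 and 878 (-0.54).

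HTRA1, a secreted serine protease that cuts matrix proteins, had 278 and 249 in mock cells and 1711 and 1065 with siRNA (log2 fold change 2.23, SE 0.248, limma adjusted p = 0.0444). SERPINE2, protease nexin 1, an inhibitor of thrombin and of plasminogen activators, had 965 and 900 against 5107 and 3337 (2.11, SE 0.230, limma adjusted p = 0.0444). BEX1, an adaptor protein best known from neurons, had 131 and 106 against 760 and 521 (2.14, SE 0.231, limma adjusted p = 0.0444). In these 3 genes replicate 1 was the brighter siRNA array, while the mock arrays were close together.

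MRTO4, a factor that assembles the stalk of the large ribosomal subunit in the nucleolus, was the gene that fell. It had 807 and 799 in mock cells and 234 and 218 with siRNA. Both pairs were tight and separate. The log2 fold change was -1.69 (SE 0.174, limma adjusted p = 0.0444), from -1.74 to -1.65 when 1 array was left out.

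**Figure D1:**
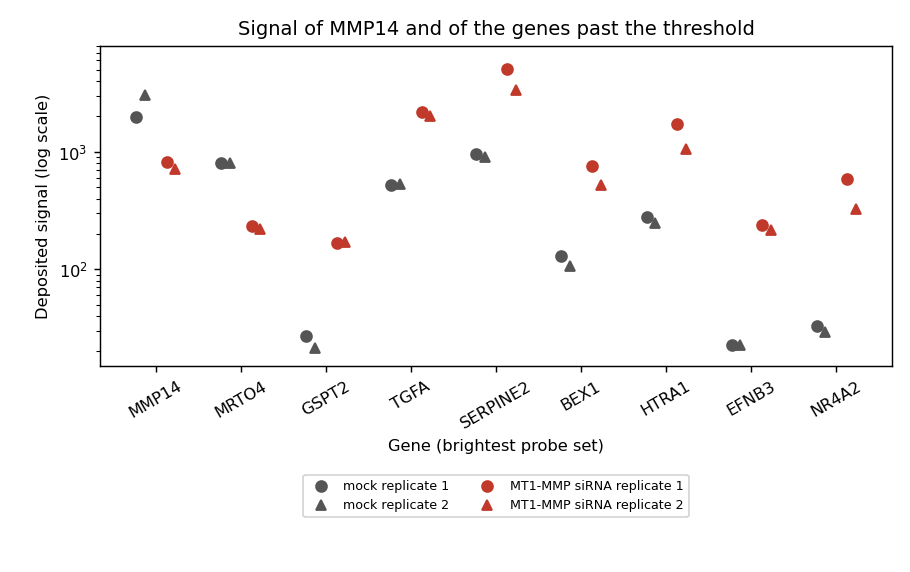
Signal (deposited units, log axis) of MMP14 and of the 8 genes past the adjusted threshold on each of the 4 arrays, with circles for replicate 1 and triangles for replicate 2. MMP14 and MRTO4 are lower on both MT1-MMP siRNA arrays (red) than on both mock arrays (grey), and the other 7 genes are higher.

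Both siRNA arrays lay above both mock arrays with a log2 fold change of at least 1 for 138 genes (1.71%), and below both with one of -1 or less for 79 genes (0.98%). Those described next did not pass the adjusted threshold. TXNIP, a thioredoxin-binding protein that restrains glucose uptake, had 198 and 537 in mock cells and 2323 and 2027 with siRNA (2.61, adjusted p = 0.0911), and its 3 probe sets lay between 2.06 and 3.18. GLUL, glutamine synthetase, had 8.7 and 35.9 against 1035 and 187 (3.20). Its 2 siRNA arrays differed widely, and its 2 probe sets were at 3.20 and 1.57 over all arrays. Without MT1-MMP siRNA replicate 1 the other probe set was the brighter, at 0.59, so that value cannot be set against 3.20. SLC14A1, a urea transporter, had 76.7 and 123 against 499 and 413 (1.91, adjusted p = 0.0567). SERPINI1, neuroserpin, had 39.5 and 74.7 against 298 and 286 (1.89, adjusted p = 0.0700). Both were separated by a gap several times the difference within a pair. DPYD, which degrades pyrimidines, had 74.8 and 83.2 against 295 and 286 (1.54, adjusted p = 0.0567). LRRC17 (2.03), the glutathione transferase GSTM3 (1.99) and CSGALNACT1 (1.89), an enzyme of chondroitin sulphate synthesis, had adjusted p-values of 0.160, 0.161 and 0.146. Of these, LRRC17 and GSTM3 depended most on mock replicate 1, without which they were 1.13 and 1.10, and CSGALNACT1 was 1.23 without MT1-MMP siRNA replicate 2.

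On the lower side, IL24, a cytokine of the interleukin 10 family, had 82.3 and 320 in mock cells and 31.7 and 4.9 with siRNA (-2.05). ODC1, ornithine decarboxylase, the first enzyme of polyamine synthesis, had 6076 and 4638 against 1253 and 2142 (-1.68, adjusted p = 0.0967). ILKAP, a protein phosphatase that binds integrin-linked kinase, had 208 and 141 against 39.1 and 39.1 (-1.52, adjusted p = 0.0953). In each of the 3 genes both siRNA arrays were below both mock arrays. STEAP1, a membrane metalloreductase, had 777 and 914 against 303 and 342 (-1.31, adjusted p = 0.0911). PPIF, the cyclophilin of the mitochondrial pore, had 1451 and 1089 against 349 and 647 (-1.34), and HCLS1, a cortactin-like actin regulator, had 622 and 536 against 165 and 264 (-1.34). The values of COA7 (-1.44), PAGR1 (-1.48) and PLEKHO2 (-1.34) depended on which siRNA array was used. They were -0.93 and -0.73 without MT1-MMP siRNA replicate 1 for COA7 and PLEKHO2, and -0.88 without MT1-MMP siRNA replicate 2 for PAGR1.

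Genes of DNA replication were lower with MT1-MMP siRNA in most of the list. Of 59 tested, 55 lay below 0, where 49.1% of all genes did, and 46 had both siRNA arrays below both mock arrays, against 24.9% of all genes. At an unadjusted p under 0.05, 34 were lower and 1 higher, against 8.37% and 8.09% of all genes, and none passed the adjusted threshold. The median log2 fold change was -0.58, against 0.0071 over all genes. The median was -0.42 without mock replicate 1 and -0.45 without MT1-MMP siRNA replicate 1. On the other side, 50.9% of all genes lay above 0, and 25.1% had both siRNA arrays above both mock arrays. These shares over all genes are the background for the counts of every list below.

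The genes that load and start the replication helicase had the lowest values, with a median of -0.74 over 22 genes. CDC45, a subunit of the helicase itself, had 260 and 145 in mock cells and 16.6 and 21.7 with siRNA, under the filter signal (log2 fold change -2.15, adjusted p = 0.0702). MCM10, which joins helicase and polymerase, had 558 and 352 against 154 and 196 (-1.21). MCM4, a subunit of the helicase ring, had 847 and 682 against 330 and 346 (-1.10). The groups were separate for all 3. The other ring subunits were lower by -1.07 (MCM2), -0.82 (MCM7), -0.81 (MCM5), -0.79 (MCM3) and -0.65 (MCM6), and MCM6 did not pass an unadjusted p of 0.05. Of the origin recognition complex, which marks the start sites, ORC5 (-0.95), ORC1 (-0.80) and ORC6 (-0.67) were lower. ORC2 (0.00), ORC3 (0.14) and ORC4 (-0.07) did not pass an unadjusted p of 0.05.

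Among polymerases and clamp genes the median was -0.46 over 21. POLA1, the catalytic subunit of the primase-polymerase, had 223 and 208 in mock cells and 83.6 and 78.2 with siRNA (-1.13, adjusted p = 0.102). PRIM1, its primase, had 825 and 722 against 272 and 455 (-1.06). PCNA, the sliding clamp, had 1556 and 1332 against 636 and 1017 (-0.81). RFC5, a subunit of the clamp loader, lay against the list, with both siRNA arrays above both mock arrays (0.79), while RFC2, RFC3 and RFC4 were at -0.65, -0.67 and -0.58. In nucleotide supply, with a median of -0.50 over 16 genes, CTPS1, which makes CTP, had 1100 and 925 against 345 and 455 (-1.28, adjusted p = 0.0957). RRM2, the small subunit of ribonucleotide reductase, was at -1.32 and its large subunit RRM1 at -0.45. TYMS, thymidylate synthase, was at -0.53, and the thymidine kinase TK1 overlapped between the groups (-0.23).

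Mitosis genes had values of a similar size. Of 57 genes tested, 55 lay below 0, against 49.1% of all genes, and 41 were below mock on both siRNA arrays, against 24.9%. At an unadjusted p under 0.05, 31 were lower and none higher, against 8.37% and 8.09% of all genes. The median was -0.54, and -0.43 both without mock replicate 1 and without MT1-MMP siRNA replicate 1. The transcription factors FOXM1 and MYBL2, which drive mitotic genes, were among the lowest. MYBL2 had 302 and 186 in mock cells and 95.4 and 34.5 with siRNA (-1.55), and FOXM1 was at -1.73 (adjusted p = 0.0953). E2F1, which drives entry into S phase, overlapped between the groups, at 153 and 93.4 against 122 and 91.9 (-0.14).

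NCAPH, a subunit of condensin, had 154 and 192 in mock cells and 46.3 and 21.2 with siRNA (-1.66, adjusted p = 0.0953). CDC20, the activator of the anaphase-promoting complex, had 2862 and 1660 against 696 and 1092 (-1.29). Cyclin A2 (CCNA2) had 1679 and 1102 against 483 and 725 (-1.16). All 3 were separate between the groups. CDCA8, a subunit of the chromosomal passenger complex, had 823 and 760 against 316 and 451 (-1.01), and its partner kinase AURKB was at -0.70 and survivin (BIRC5) at -0.76, while INCENP overlapped at 0.16. Of the mitotic cyclins and their kinase, CCNB1 was at -0.76, CCNB2 at -0.29 and CDK1 at -0.31, and CCNB2 and CDK1 did not pass an unadjusted p of 0.05. PLK1 (-0.22), BUB1 (-0.19), TTK (-0.09) and WEE1 (-0.06) overlapped between the groups. Ki-67 (MKI67), a marker of cycling cells, had 636 and 503 against 400 and 328 (-0.60).

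The promoters of both lists were read because the members had values of the same sign. Windows from 250 bases before to 50 bases after the annotated start were taken from RefSeq on GRCh38.p14 and searched on both strands. A gene was counted when any of its start windows held a match. Shares of all promoters are likewise shares of genes, 27305 in all. The E2F motif was taken as TTTCCCG or TTTCGCG or TTTGGCG, the cell cycle homology region (CHR) as TTTGAA or TTCGAA, and the third motif was CCAAT. Of the replication genes 28 of 53 with a window held an E2F match (52.8%), against 8.67% of all promoters and 14.3% of the genes tested. A CHR match was held by 35 of 47 mitosis genes (74.5%), against 19.5% of all promoters and 16.5% of the genes tested, and by 6 of the 53 replication genes (11.3%). CCAAT was held by 37 of the 47 mitosis genes (78.7%) and 26 of the 53 replication genes (49.1%), against 39.7% of all promoters and 44.7% of the genes tested. These shares describe the lists as they were written, whatever their members' values, and a match is a run of letters and not a measured site.

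The windows of 2 replication genes with low values are printed because they hold matches of different kinds. Capitals mark E2F and CCAAT matches on either strand. CDC45 lies at chr22:19479670-19479969 on the plus strand and holds 4 CCAAT matches and 1 E2F match. MCM2 lies at chr3:127598161-127598460 on the plus strand and holds 2 E2F matches that overlap on opposite strands.
CDC45: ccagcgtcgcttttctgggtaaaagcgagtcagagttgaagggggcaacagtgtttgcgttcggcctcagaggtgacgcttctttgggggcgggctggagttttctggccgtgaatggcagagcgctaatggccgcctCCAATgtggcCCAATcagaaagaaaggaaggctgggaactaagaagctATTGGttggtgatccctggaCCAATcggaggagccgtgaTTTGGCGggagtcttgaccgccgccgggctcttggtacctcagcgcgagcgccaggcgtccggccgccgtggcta
MCM2: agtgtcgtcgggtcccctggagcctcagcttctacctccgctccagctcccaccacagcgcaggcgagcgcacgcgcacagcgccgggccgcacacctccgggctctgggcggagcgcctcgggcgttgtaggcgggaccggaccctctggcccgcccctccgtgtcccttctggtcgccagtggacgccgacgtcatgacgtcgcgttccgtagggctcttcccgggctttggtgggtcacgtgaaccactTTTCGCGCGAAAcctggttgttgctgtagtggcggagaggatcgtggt

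The windows of 2 mitosis genes with low values show the CHR and CCAAT matches, again in capitals on either strand. CDC20 lies at chr1:43358731-43359030 on the plus strand with 2 CCAAT and 2 CHR matches. CDCA8 lies at chr1:37692266-37692565 on the plus strand with 3 CCAAT matches and 1 CHR match that runs into one of them.
CDC20: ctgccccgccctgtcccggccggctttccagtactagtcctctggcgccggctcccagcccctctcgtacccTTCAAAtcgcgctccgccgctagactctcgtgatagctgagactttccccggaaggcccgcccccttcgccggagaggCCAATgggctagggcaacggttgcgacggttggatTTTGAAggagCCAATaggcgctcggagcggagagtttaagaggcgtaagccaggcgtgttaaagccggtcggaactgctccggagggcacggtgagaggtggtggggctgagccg
CDCA8: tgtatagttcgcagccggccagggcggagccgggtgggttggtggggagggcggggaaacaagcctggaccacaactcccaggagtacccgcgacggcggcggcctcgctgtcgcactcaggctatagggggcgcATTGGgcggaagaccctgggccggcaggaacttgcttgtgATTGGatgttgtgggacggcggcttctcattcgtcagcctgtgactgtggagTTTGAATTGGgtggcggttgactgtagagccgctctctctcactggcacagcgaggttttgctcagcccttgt

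**Figure D2:**
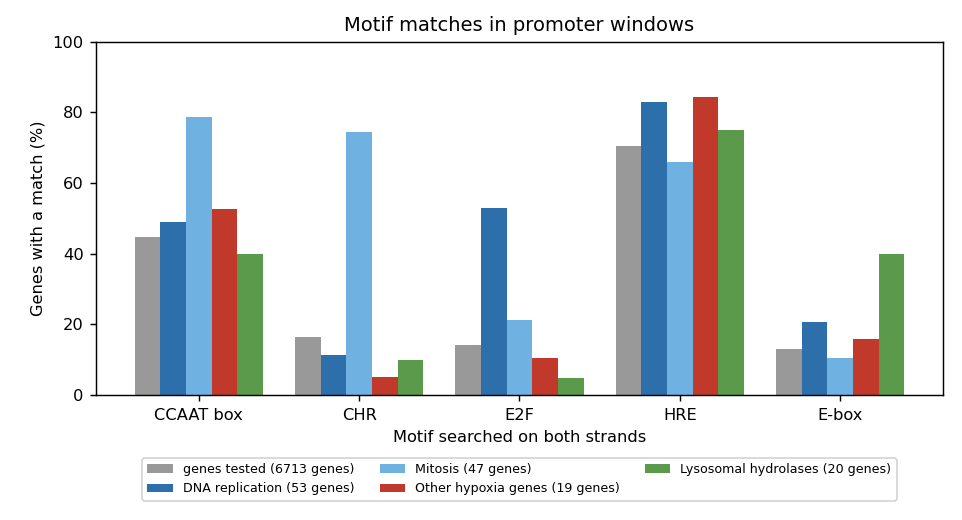
Share of genes (%) whose promoter window holds a match to each of 5 motifs, for the 6713 genes tested that had a window and for 4 lists (bars, with the number of genes in the key). E2F matches reach 52.8% in the replication list and CHR matches 74.5% in the mitosis list, against 14.3% and 16.5% of the genes tested.

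Regulators of G1 lay on both sides. Of 16 tested, 8 were above 0 and 8 below, with a median of -0.071 that was -0.025 without MT1-MMP siRNA replicate 2. The inhibitor p27 (CDKN1B) had 132 and 160 in mock cells and 331 and 358 with siRNA (log2 fold change 1.08, adjusted p = 0.108). RBL2, the pocket protein p130, had 112 and 123 against 242 and 227 (0.84), and RB1 was at 0.51. Cyclin E2 (CCNE2) had 187 and 143 against 65.4 and 86.7 (-0.86). The groups were separate for these 4 genes. Cyclin D3 (CCND3) was at -0.71 and CDK4 at -0.47, while cyclin G1 (CCNG1), a p53 target, was at 1.00. The inhibitor p21 (CDKN1A) had 1500 and 1553 against 1720 and 1864 (0.23) and did not pass an unadjusted p of 0.05. Over the p53 targets and death receptors, 14 of 21 lay above 0, with a median of 0.13 and 4 higher at an unadjusted p under 0.05. The median was 0.025 without MT1-MMP siRNA replicate 2 and 0.030 without mock replicate 2.

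Most DNA repair genes and most modifiers of chromatin lay below 0, and the histone genes lay on both sides. Of 25 repair genes, 19 lay below 0, with a median of -0.43 that was -0.34 without mock replicate 1. At an unadjusted p under 0.05, 10 were lower and 1 higher, against 8.37% and 8.09% of all genes. Uracil glycosylase (UNG) had 438 and 254 in mock cells and 139 and 175 with siRNA (-0.96, and -0.61 without mock replicate 1). The nuclease EXO1 had 262 and 216 against 113 and 117 (-0.88). BRCA1 was at -0.77, FANCI at -0.76 and the mismatch factor MSH6 at -0.71, while XPC, a sensor of ultraviolet damage, was at 0.53. Among 21 modifiers and remodelers of chromatin 16 lay below 0, with a median of -0.42. HMGA2, an architectural protein of embryonic and tumour cells, had 1531 and 2335 against 773 and 979 (-1.09). The histone chaperone subunits CHAF1A and SSRP1 were at -0.84 and -0.77. The other probe set of SSRP1 was at -0.20, and the 3 of CHAF1A ranged from -1.20 to -0.42. Of the 8 histone genes 5 lay above 0 and 3 below, with 2 higher and 2 lower at an unadjusted p under 0.05 and a median of 0.36. They included H2BC5 at 333 and 391 against 812 and 636 (0.93) and H2AZ1 at 5859 and 5318 against 3897 and 3525 (-0.59). The lowest was H2AX at -0.88 (-0.43 without mock replicate 1), and its 3 probe sets ranged from -0.88 to -0.01. Over modifiers and histones together the median of -0.35 was -0.12 without MT1-MMP siRNA replicate 1. At an unadjusted p under 0.05, 12 of them were lower and 2 higher, against 8.37% and 8.09% of all genes.

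Genes of ribosome production split by stage. Of 46 assembly factors tested, 40 lay below 0, with a median of -0.29, and 13 were lower at an unadjusted p under 0.05. They included MRTO4, described above. RRS1, which brings the 5S particle to the large subunit, had 1028 and 724 in mock cells and 315 and 434 with siRNA (-1.16). EMG1, a methyltransferase of the small subunit, had 1844 and 1606 against 663 and 891 (-1.13, adjusted p = 0.111). RRP9 was at -0.97 and the WD-repeat factor NLE1 at -0.92, and both were closer to mock without MT1-MMP siRNA replicate 1 (-0.48 and -0.52). Nucleolin (NCL), an abundant nucleolar protein, was at -0.39 and nucleophosmin (NPM1) at 0.17. The list's median was -0.19 without mock replicate 1 and -0.23 without MT1-MMP siRNA replicate 1.

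The ribosomal proteins themselves lay above 0 for 42 of 42 genes, with a median of 0.31 and a range of 0.026 to 0.57. At an unadjusted p under 0.05, 10 were higher and none lower. RPS25 had 2814 and 3250 in mock cells and 5033 and 4048 with siRNA (0.57), and RPL34 had 8931 and 10330 against 16095 and 12430 (0.56, and 0.37 without MT1-MMP siRNA replicate 1). In both, MT1-MMP siRNA replicate 1 was the brightest array. The shift depended on the scaling. After quantile normalization the median was 0.053, with 26 above 0 and 16 below. Without MT1-MMP siRNA replicate 1 the median was 0.16, and without mock replicate 1 it was 0.24.

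Nuclear transport genes were lower. Of 29 tested, 26 lay below 0, with a median of -0.40 (-0.61 without MT1-MMP siRNA replicate 2), and 12 were lower at an unadjusted p under 0.05. KPNB1, importin beta, the carrier of most nuclear import, had 3526 and 3606 in mock cells and 1784 and 1709 with siRNA (-1.02, adjusted p = 0.0953). Its pairs were tight and separate, but its 6 probe sets ranged from -1.02 to -0.07. RANBP1, a partner of the GTPase Ran, had 4219 and 3552 against 1728 and 2437 (-0.90), and 1 of its 3 probe sets was at 0.03. The nucleoporins NUP188, NUP62, NUP50 and NUP98 were at -0.79, -0.74, -0.73 and -0.69, and NUP133 at 0.08. NUP62 was at -0.47 without mock replicate 2. The other probe set of NUP188 was at -0.14, and the 3 of NUP50 ranged from -0.73 to -0.19. The list's median was -0.34 without mock replicate 1, and 8.37% of all genes were lower at an unadjusted p under 0.05.

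Splicing factors lay below 0 for 34 of 39 genes, with a median of -0.34. The core snRNP protein SNRPF had 1560 and 1370 in mock cells and 744 and 724 with siRNA (-0.96, adjusted p = 0.111). HNRNPAB had 3289 and 2510 against 1287 and 1796 (-0.90), and HNRNPM had 2677 and 2472 against 1196 and 1645 (-0.86). The groups were separate in all 3. The polypyrimidine tract protein PTBP1 and the SR protein SRSF1 were both at -0.66, while HNRNPH1 was at 0.40. The median was -0.18 without MT1-MMP siRNA replicate 1 and -0.21 without mock replicate 1. On all arrays 10 were lower and 1 higher at an unadjusted p under 0.05, against 8.37% and 8.09% of all genes.

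Chaperones were below 0 for 22 of 24 genes, with a median of -0.36 and 11 lower at an unadjusted p under 0.05. HSPH1, a nucleotide exchange factor of HSP70, had 1968 and 1649 in mock cells and 736 and 913 with siRNA (-1.11, adjusted p = 0.111). STIP1, which links HSP70 to HSP90, had 1379 and 1302 against 722 and 794 (-0.80). HSP90AB1 was at -0.50, and the TRiC subunits CCT7 and CCT5 at -0.54 and -0.52. The list's median was -0.34 without mock replicate 1 and -0.30 without MT1-MMP siRNA replicate 1. Of 30 proteasome genes 22 lay below 0, with a median of -0.22 that was -0.11 without MT1-MMP siRNA replicate 1. PSMD1, a scaffold of the regulatory particle, had 1855 and 1442 against 762 and 1115 (-0.81). The immune subunits lay on the other side, with PSMB9 at 58.5 and 302 against 362 and 428 (1.29, and 0.35 without mock replicate 1) and PSME1 at 0.57 (0.33 without mock replicate 1).

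Among translation factors and tRNA synthetases, 21 of 30 lay below 0, with a median of -0.21. EIF5, which helps the ribosome choose the start codon, had 2250 and 2283 in mock cells and 1128 and 1030 with siRNA (-1.05, adjusted p = 0.0953), and its 5 probe sets ranged from -1.05 to -0.22. The release factor ETF1 was at -0.85 and the synthetase subunit FARSA at -0.71, and their other probe sets were at -0.32 and -0.17. Without MT1-MMP siRNA replicate 1 the median was 0.028. Mitochondrial ribosome and import genes lay below 0 for 31 of 38, with a median of -0.25 that was -0.14 without MT1-MMP siRNA replicate 1. Of polyamine enzymes, besides ODC1, spermidine synthase (SRM) had 1336 and 1109 against 560 and 655 (-0.97) and the decarboxylase AMD1 was at -0.64. Oxidative phosphorylation and the TCA cycle had 18 of 33 above 0 and a median of 0.054, which was -0.0032 without MT1-MMP siRNA replicate 2.

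**Figure D3:**
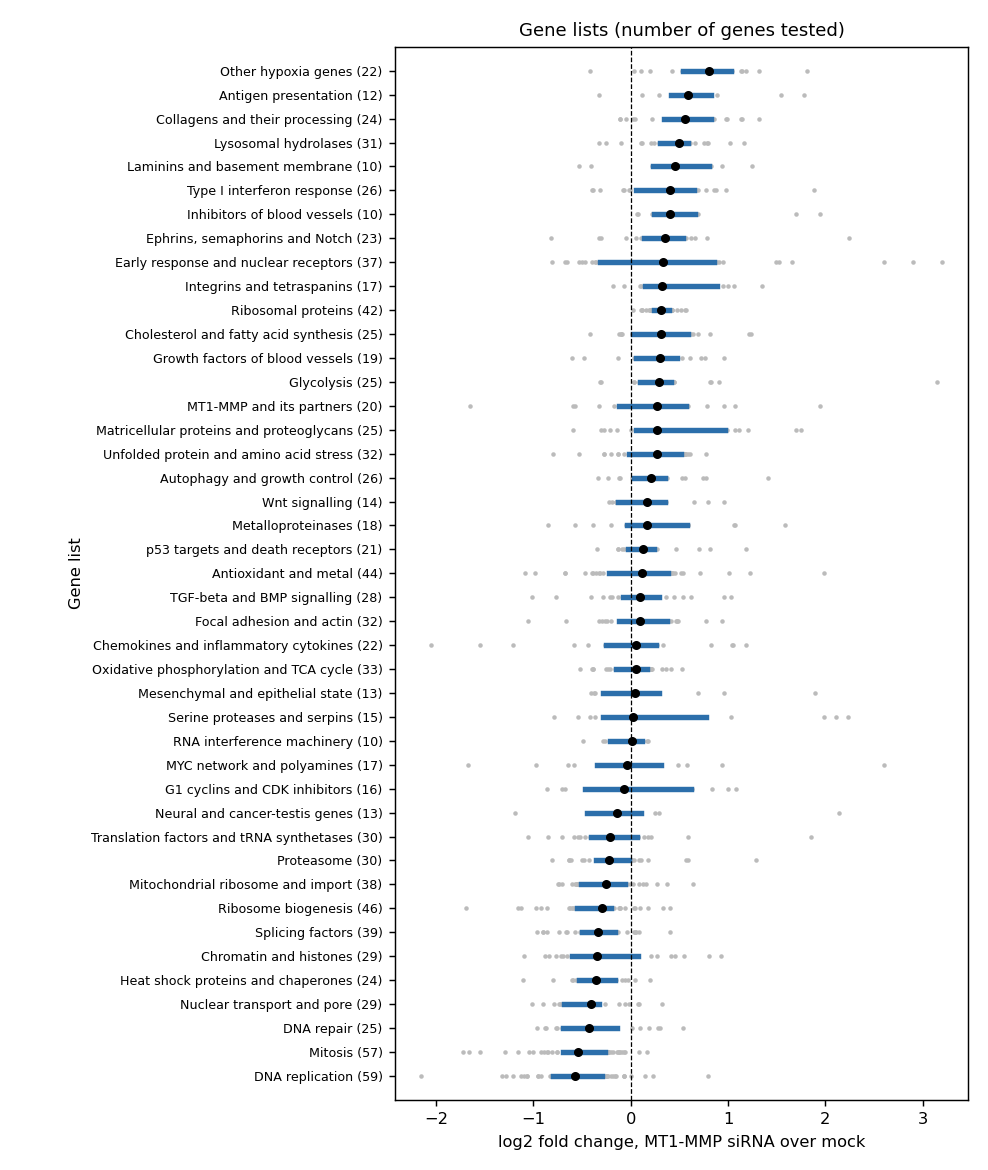
Log2 fold change of MT1-MMP siRNA over mock for every gene tested in each list (grey points), with the middle 50% of genes (blue bar) and the median (black point), ordered by median. The dashed line is the median of all 8061 genes, 0.0071, and the list medians run from -0.58 (DNA replication) to 0.81 (hypoxia genes other than glycolysis).

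Genes that respond to low oxygen were higher. Of 22 hypoxia genes outside glycolysis, 21 lay above 0, where 50.9% of all genes did, and 14 were higher at an unadjusted p under 0.05 and none lower. The median was 0.81. P4HA1, a prolyl hydroxylase of collagen, had 838 and 973 in mock cells and 2143 and 1912 with siRNA (1.14, adjusted p = 0.0953). The mitophagy receptor BNIP3 had 1540 and 1991 against 3243 and 2979 (0.82). ERO1A, an oxidase of the endoplasmic reticulum, had 414 and 428 against 906 and 687 (0.86). The groups were separate for all 3.

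Other members of the hypoxia list varied within the mock pair, with replicate 1 the lower. TMEM45A had 66 and 175 in mock cells and 740 and 289 with siRNA (1.81), and NDRG1, a stress-induced protein, had 1670 and 3553 against 7310 and 4032 (1.14). BNIP3L had 613 and 1286 against 2304 and 1838 (1.18). NDRG1 was at 0.61 and BNIP3L at 0.66 without mock replicate 1, and without MT1-MMP siRNA replicate 1 TMEM45A was at 1.17. VEGFA, the main growth factor of blood vessels, overlapped between the groups, at 1285 and 2887 against 4167 and 2465. The oxygen-regulated factor HIF1A was at 0.53, while its relative EPAS1 overlapped at -0.42 and ARNT, the partner of both, at 0.11. Over the list the median was 0.44 without mock replicate 1 and 0.54 without MT1-MMP siRNA replicate 1.

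In glycolysis 23 of 25 genes lay above 0, with a median of 0.29 and 6 higher at an unadjusted p under 0.05. The median was 0.12 after quantile normalization and 0.18 without MT1-MMP siRNA replicate 1. The branching enzyme GBE1 had 1258 and 1239 in mock cells and 2623 and 2126 with siRNA (0.90). The glucose transporter SLC2A3 had 363 and 463 against 838 and 663 (0.81). Both were separate between the groups, whereas the transporter SLC2A1 overlapped at 0.08. Lactate dehydrogenase A (LDHA) was at 0.44 and pyruvate kinase (PKM) at 0.36. Aldolase C (ALDOC) had 82.9 and 1048 against 4315 and 2221 (3.15), and 1.54 without mock replicate 1. Hexokinase 1 (HK1) and phosphofructokinase of muscle type (PFKM) were both at -0.31.

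The hypoxia response element was searched as ACGTG or GCGTG on both strands, and ACGTG also lies inside the E-box CACGTG. It was held by 16 of 19 hypoxia genes with a window (84.2%) and 23 of 24 glycolysis genes (95.8%), against 52.4% of all promoters and 70.5% of the genes tested. The replication genes, with values of the opposite sign, held it in 83.0% of windows. The PGK1 window is printed because PGK1, which makes ATP in glycolysis, had 4 matches, in capitals. PGK1 lies at chrX:78103998-78104297 on the plus strand, and its log2 fold change was 0.82, with 4 probe sets between 0.37 and 0.82.
PGK1: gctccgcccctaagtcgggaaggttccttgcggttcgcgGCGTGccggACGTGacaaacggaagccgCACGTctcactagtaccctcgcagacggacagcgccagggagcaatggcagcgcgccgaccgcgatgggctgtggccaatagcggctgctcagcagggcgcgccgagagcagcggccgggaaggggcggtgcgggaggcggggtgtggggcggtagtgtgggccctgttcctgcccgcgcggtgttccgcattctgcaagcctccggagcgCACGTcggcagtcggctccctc

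Collagens and the enzymes that process them lay above 0 for 21 of 24 genes, with a median of 0.56. At an unadjusted p under 0.05, 11 were higher and none lower. COL6A1, a chain of the beaded collagen VI, had 385 and 271 in mock cells and 658 and 857 with siRNA (1.14). COL6A2 had 205 and 135 against 400 and 322 (0.98), while its other probe set was at 0.17. COL4A1, of basement membrane collagen, had 1093 and 922 against 2076 and 1526 (0.81). All 3 were separate between the groups. COL13A1, a transmembrane collagen, was at 0.71 and COL5A1 at 0.77, while COL1A1, the main chain of fibrillar collagen, overlapped at 156 and 211 against 138 and 246 (0.02). Of the enzymes, P4HA2 was at 1.32 (0.78 without MT1-MMP siRNA replicate 1), the procollagen proteinase BMP1 at 0.99 (0.56 without it) and the cross-linking oxidase LOXL2 at 0.86. LOX overlapped at -0.11, with mock signals of 616 and 2853. The list's median was 0.35 without mock replicate 1 and 0.46 without MT1-MMP siRNA replicate 1.

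Basement membrane genes had 8 of 10 above 0 and a median of 0.46. Laminin beta 1 (LAMB1) had 343 and 285 in mock cells and 962 and 638 with siRNA (1.24, adjusted p = 0.122). The nidogens NID2 and NID1, which tie laminin to collagen IV, were at 0.94 and 0.82, and NID1 was at 0.51 without MT1-MMP siRNA replicate 1. LAMB3, a chain of the laminin of epithelial anchors, was lower at 2888 and 3280 against 2418 and 2224 (-0.40). The list's median was 0.31 without mock replicate 1, and leaving out mock replicate 2 gave 0.75. Matricellular proteins and proteoglycans had 20 of 25 above 0, with a median of 0.27. It was 0.44 without MT1-MMP siRNA replicate 2, and 0.73 over the 17 genes left by the filter at the 60th percentile. Connective tissue growth factor (CCN2) had 485 and 579 against 1231 and 1302 (1.21, adjusted p = 0.0911). Thrombospondin 1 (THBS1), an inhibitor of blood vessel growth, had 203 and 215 against 620 and 910 (1.70, adjusted p = 0.0702), with 5 probe sets from 0.01 to 1.87. FN1, fibronectin, had 1869 and 5529 against 12635 and 9354 (1.75), and 0.97 without mock replicate 1. Tenascin C (TNC) and TGFBI overlapped, at 0.18 and -0.22.

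Other proteases lay on both sides of 0. Of 18 metalloproteinases and ADAMs tested besides MMP14, 12 lay above 0, with a median of 0.17 that was 0.095 without MT1-MMP siRNA replicate 1 and 0.37 without mock replicate 2. ADAMTS2, which removes the N-propeptide of procollagen, had 23.4 and 14.1 in mock cells and 146 and 98.2 with siRNA (1.59, adjusted p = 0.0967). MMP17, another membrane-bound metalloproteinase, had 37.8 and 30.8 against 133 and 84 (1.06). ADAMTS2 and MMP17 both lay under the filter signal in mock cells. Stromelysin 1 (MMP3) was lower at 99.3 and 110 against 48.6 and 72.4 (-0.57). MMP9 overlapped, since its mock signals were 127 and 832, against 191 and 158 with siRNA. Serine proteases and serpins had 9 of 15 above 0 and a median of 0.028, and the list holds the called HTRA1 and SERPINE2. The median ran from -0.15 without MT1-MMP siRNA replicate 1 to 0.45 without MT1-MMP siRNA replicate 2, and was -0.048 without mock replicate 1. The tissue plasminogen activator PLAT had 378 and 1683 against 4853 and 2230 (1.99, and 0.95 without mock replicate 1). Urokinase (PLAU) was at 0.36 and its receptor PLAUR at 0.00.

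Integrins and tetraspanins had 15 of 17 above 0, with a median of 0.32. Integrin beta 1 (ITGB1), the shared partner of most matrix receptors, had 3894 and 4296 in mock cells and 7820 and 5868 with siRNA (0.72). The tetraspanin CD82 had 112 and 207 against 356 and 323 (1.00), and 0.64 without mock replicate 1. ITGB5 was at 0.95 (0.63 without mock replicate 1), with 4 probe sets from -0.25 to 1.18. ITGA3 had 1139 and 1290 against 1481 and 1634 (0.35, unadjusted p = 0.0833). Focal adhesion and actin genes had 19 of 32 above 0 and a median of 0.094, which was 0.026 without mock replicate 1. The mesenchymal and epithelial list had 7 of 13 above 0 and a median of 0.047, and E-cadherin (CDH1) was under the filter. The sign of that median depended on the setting, since it was -0.053 without mock replicate 1, -0.029 after quantile and -0.012 after cyclic loess normalization.

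Lysosomal genes were higher. Of 31 tested, 28 lay above 0, with a median of 0.50, and 13 were higher at an unadjusted p under 0.05 and none lower. Acid alpha-glucosidase (GAA), which digests glycogen, had 158 and 78.4 in mock cells and 327 and 259 with siRNA (1.16, and 0.77 without mock replicate 2). Beta-mannosidase (MANBA) had 122 and 164 against 258 and 279 (0.79), and acid sphingomyelinase (SMPD1) had 325 and 260 against 556 and 474 (0.76). In all 3 the groups were separate. The membrane proteins LAMP1 and LAMP2 were at 0.49 and 0.51. Cathepsin H (CTSH) was at 1.03, and 0.44 without MT1-MMP siRNA replicate 1, whereas cathepsins L (CTSL) and B (CTSB) overlapped at 0.11 and 0.54. Alpha-galactosidase (GLA) lay below, at 420 and 484 against 356 and 353 (-0.32). Without MT1-MMP siRNA replicate 1 the median was 0.25, and without mock replicate 1 it was 0.37. Of all genes, 8.09% were higher at an unadjusted p under 0.05.

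CACGTG, the core of the element that lysosomal genes are known to share, was held by 8 of 20 lysosomal genes with a window (40%), against 8.77% of all promoters and 13.2% of the genes tested. The GAA window is printed because it holds 2 matches, in capitals. GAA lies at chr17:80101331-80101630 on the plus strand.
GAA: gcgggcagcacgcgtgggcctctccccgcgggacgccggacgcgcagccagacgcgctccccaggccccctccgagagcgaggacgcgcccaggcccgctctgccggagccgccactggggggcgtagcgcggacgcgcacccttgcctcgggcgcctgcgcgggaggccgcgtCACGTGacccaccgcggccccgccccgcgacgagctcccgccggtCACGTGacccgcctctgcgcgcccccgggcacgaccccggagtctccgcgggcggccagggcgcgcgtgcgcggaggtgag

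Antigen presentation genes were also higher. Of 12 tested, 11 lay above 0, with a median of 0.59, and 8 were higher at an unadjusted p under 0.05. HLA-B had 335 and 599 in mock cells and 1624 and 1161 with siRNA (1.55, adjusted p = 0.122). HLA-C had 258 and 904 against 1975 and 1562 (1.78, and 0.93 without mock replicate 1). The class I genes are near-identical in sequence, so signal may be shared among them and the split between HLA-B, HLA-C, HLA-F (0.89) and HLA-G (0.80) is uncertain. Beta-2 microglobulin (B2M), their common light chain, is a separate gene and had 5244 and 5946 against 10058 and 7461 (0.63, and 0.42 without MT1-MMP siRNA replicate 1). The peptide transporter TAP1 had 158 and 161 against 238 and 232 (0.48), while TAP2 was below mock at -0.32. Over the list the median was 0.43 without mock replicate 1, and 8.09% of all genes were higher at an unadjusted p under 0.05.

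Type I interferon genes depended on single arrays. Of 26 tested, 19 lay above 0 with a median of 0.40, but without mock replicate 1 the median was 0.024, and without MT1-MMP siRNA replicate 1 it was 0.097. IFITM1, a membrane antiviral protein, had 82.4 and 317 in mock cells and 830 and 600 with siRNA (1.89, and 1.08 without mock replicate 1). IFIT2 had 40.7 and 28.9, under the filter signal, against 98.5 and 99.7 (0.98). ISG15 overlapped at 153 and 278 against 212 and 202, as did OAS1 and OAS3. The sensor of double-stranded RNA RIGI was at 0.67 and the kinase EIF2AK2 at -0.40.

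The lists can be followed array by array as the median, over the genes of a list, of each gene's deviation from its own mean on the log2 scale. For DNA replication these medians were 0.35 and 0.17 in mock cells against -0.38 and -0.19 with siRNA. For collagens they were -0.37 and -0.15 against 0.47 and 0.17, and for hypoxia genes outside glycolysis -0.63 and -0.072 against 0.63 and 0.16. The groups were separate in the 9 lists plotted, and replicate 1 of each group lay at the extremes. None of the 9 had a median log2 fold change nearer 0 than 0.31, which favours separation. Lists with medians near 0 were not plotted. MT1-MMP siRNA replicate 1, which lay farthest from the mock arrays, was also the array with the brightest hybridisation controls (2.30), and the part of that in these medians was not tested.

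**Figure D4:**
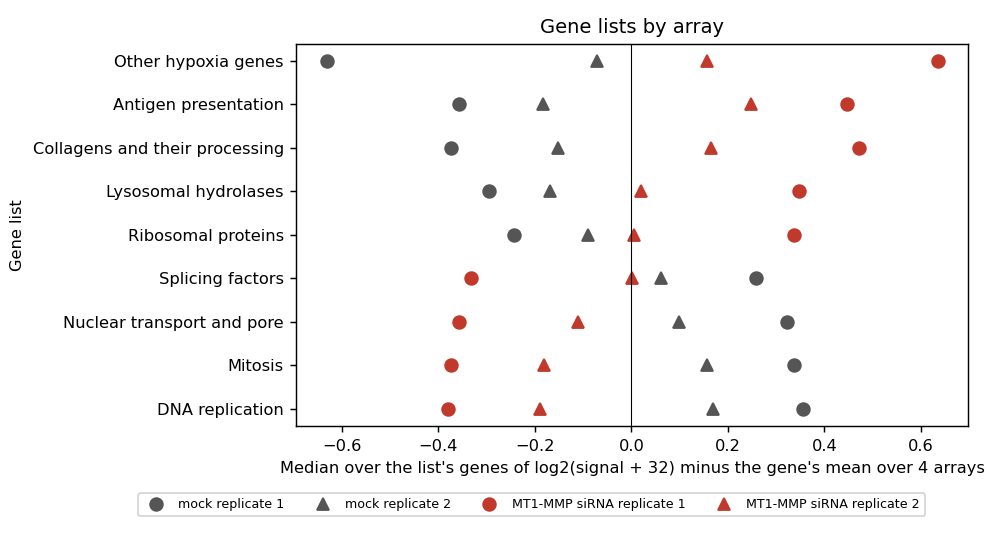
Median over the genes of 9 lists of log2(signal + 32) minus each gene's own mean over the 4 arrays, by array. Replicate 1 of each group lies farthest from 0 in every list shown, and in the splicing and ribosomal protein lists MT1-MMP siRNA replicate 2 lies at 0.00070 and 0.0047, near 0.

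Early response and hormone-responsive genes reached further on the higher side than on the lower. With no overlap between the groups, 6 genes had a log2 fold change of at least 1 and 0 one of -1 or less. Over all genes these shares were 1.71% and 0.98%, so a count of 0 among 37 genes says little. Of 37 tested, 24 lay above 0, with 16 higher and 4 lower at an unadjusted p under 0.05. The median was 0.33, and 0.11 without mock replicate 1. Glucocorticoid-responsive members, 9 in all, lay above 0 without exception, with a median of 0.73. TSC22D3, the leucine zipper that glucocorticoids induce, had 129 and 255 in mock cells and 738 and 566 with siRNA (1.66, adjusted p = 0.111). KLF9 had 101 and 160 against 586 and 296, and FKBP5 had 29.3 and 43.0 against 86.8 and 74.2 (0.73). In all 3 both siRNA arrays were above both mock arrays. The receptor itself, NR3C1, was at 0.63.

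Among early response factors, EGR1 had 66.7 and 74.1 in mock cells and 162 and 145 with siRNA (0.86), and NR4A1, the relative of the called NR4A2, was at 0.64. JUN (-0.39), KLF6 (-0.53) and KLF2 (-0.50) were lower on both siRNA arrays. In feedback on MAP kinases, the phosphatase DUSP4 had 242 and 571 against 1548 and 838 (1.53, and 0.96 without mock replicate 1), while DUSP5 was at -0.68 and HRAS at -0.81. SPRY2 was at 0.89 and SPRY4 at -0.47, so relatives lay on opposite sides.

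In TGF-beta and BMP signalling 17 of 28 lay above 0, with a median of 0.096 that was -0.082 without mock replicate 1. The ligand TGFB2 had 50.8 and 52.7 in mock cells and 170 and 114 with siRNA (1.04), although 1 of its 2 probe sets was at 0.07. The ligand TGFB1 was at 0.96 and, without mock replicate 1, at 0.43. Of the 7 target genes 3 lay above 0 and 4 below, with 1 higher and 2 lower at an unadjusted p under 0.05. The BMP target ID3 had 815 and 540 against 372 and 262 (-1.01), ID2 was at -0.76 (-0.47 without mock replicate 1) and ID1 at -0.41, and TGIF1 was at 0.62. Receptors and SMADs, 12 in all, ranged from -0.21 to 0.29. Among guidance genes, with 19 of 23 above 0 and a median of 0.35 (0.079 without mock replicate 1), EFNB3 was the called one and the other ephrins EFNA3 and EFNA4 were at 0.79 and 0.55. SLIT2, a repellent ligand, had 103 and 114 against 48.9 and 46.6 (-0.82). NRP2, a receptor of semaphorins and VEGF-C, had 169 and 241 against 435 and 412 (0.96). DKK3, a secreted relative of Wnt inhibitors, had 396 and 437 against 895 and 785 (0.96, adjusted p = 0.122).

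Inflammatory genes had 12 of 22 above 0 and a median of 0.060, which was -0.24 without mock replicate 1. CXCL8, interleukin 8, had 795 and 1647 in mock cells and 505 and 270 with siRNA (-1.55), and its 2 probe sets were at -1.55 and -0.82. BCL2A1, an NF-kappaB target that blocks apoptosis, had 233 and 181 against 93.6 and 51.8 (-1.21). IL1A and IL15 were higher, at 1.19 and 0.82, as was macrophage colony-stimulating factor (CSF1) at 1.06. With MT1-MMP siRNA replicate 2 left out IL1A was at 0.73, and with replicate 1 left out CSF1 was at 0.70. The antioxidant list had 27 of 44 above 0 and a median of 0.11, which was -0.0060 without mock replicate 2. Of its 17 members controlled by NRF2, 9 lay below 0 and 8 above, with a median of -0.20. At an unadjusted p under 0.05, 5 were lower and 1 higher. GCLM, a subunit of the enzyme that limits glutathione synthesis, had 864 and 1046 against 352 and 530 (-1.08). Haem oxygenase (HMOX1) was at -0.98 (-0.64 without mock replicate 2). The highest member was AKR1C3 at 1.01 (0.44 without MT1-MMP siRNA replicate 1). Peroxiredoxin 2 (PRDX2) had 262 and 393 against 1045 and 608 (1.23).

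Cholesterol and fatty acid synthesis had 20 of 25 above 0, with a median of 0.31 and 7 higher at an unadjusted p under 0.05. MSMO1, a sterol oxidase, had 656 and 1077 in mock cells and 2162 and 1842 with siRNA (1.21), and the desaturase SCD had 703 and 1429 against 3035 and 1924 (1.24, and 0.75 without mock replicate 1). The regulator SREBF2 was at 0.64. The list's median was 0.21 without mock replicate 1. Genes of the unfolded protein response had 24 of 32 above 0 and a median of 0.27, which was 0.046 without MT1-MMP siRNA replicate 2, and SDF2L1 was the lowest at -0.80 (-0.42 without MT1-MMP siRNA replicate 1). Autophagy and growth control had 22 of 26 above 0 and a median of 0.21, which was 0.13 without MT1-MMP siRNA replicate 1. IGFBP7, a secreted binder of insulin-like growth factors, had 744 and 1208 against 2668 and 2488 (1.41, adjusted p = 0.108).

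**Figure D5:**
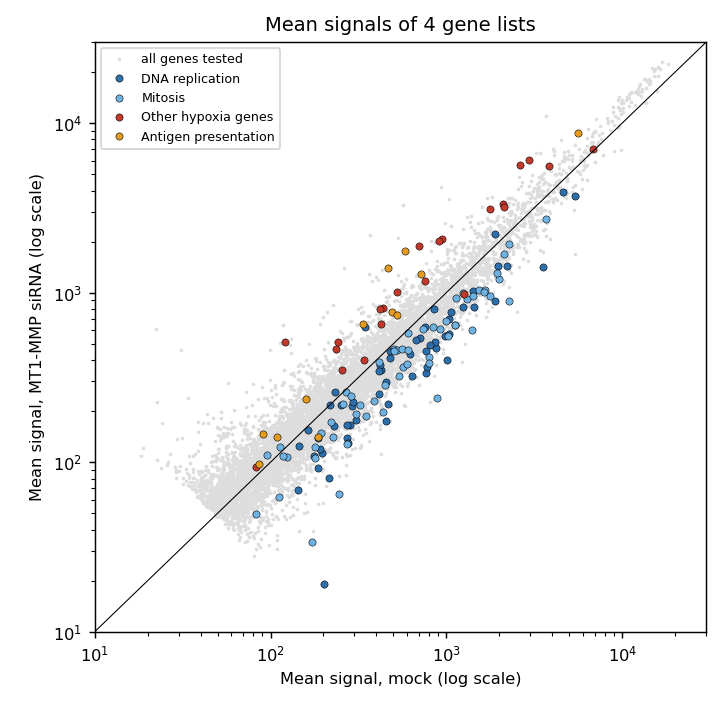
Mean signal over 2 arrays in mock cells (horizontal, log axis) and with MT1-MMP siRNA (vertical, log axis) for all genes tested (light grey) and for 4 lists, with the line of equal signal. Genes of DNA replication and mitosis (blue) lie mostly below the line and genes of hypoxia and antigen presentation (red, orange) mostly above it. The log2 fold change was below 0 for 55 of 59 and 55 of 57 genes, and above 0 for 21 of 22 and 11 of 12.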

How the data were processed

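HT1080 RNA was measured on single-channel oligonucleotide arrays. The authors deposited 1 intensity per probe set, on a linear scale. On each of the 4 arrays, the middle probe sets averaged about 250.1 once the highest and lowest were trimmed, so the values share a common scaling. Summarisation, background correction and genome build: not given in the sources used here. The number of arrays limits the precision.

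Groups and replicate numbers come from the sample titles. Gene names are those of the platform annotation. Of 22283, 68 were controls, 1043 carried several symbols and 2107 none, and these were left out. Of 19065 with 1 symbol, 19053 matched a current gene record and 0 symbols were updated, and 31 of the Y chromosome and X-inactivation centre were left out. Values under 1, between 56 and 91 on an array, were raised to 1 before taking log2(value + 32), so a fold change of a dim gene is understated. A probe set stayed when its average over the 4 arrays exceeded the 40th percentile (6.33 in log2, a signal of 48.5). Each gene took its brightest one (8061 genes, 11807 probe sets). A gene under the filter signal in 1 group could therefore pass through the other group, and could be called in 1 direction only. Other probe sets of a gene can differ from the brightest, and the text gives them only for some genes. The model, fitted with limma 3.58.1 under R 4.3.3 (lmFit, eBayes with trend), had 1 mean per group, 2 residual degrees of freedom and 5.14 prior ones. The threshold was a Benjamini-Hochberg value under 0.05. Adjusted p-values in the text are from this limma fit over all 8061 genes, except where another setting is named. The text uses rose and fell for called genes only. Values in brackets after signals are log2 fold changes.

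The members and the 49 lists (cell type markers included) were chosen with earlier results of these data known. Lists are therefore described by counts and medians, without a test. Named genes are the 15 largest on each side, called genes first and then genes with no overlap and an unadjusted p under 0.01. Named too are up to 6 genes without overlap per list, MMP14 and its partners, and members needed to describe a complex. DPYD and STEAP1 were named outside this rule and have no values under other settings. In 10 simulated sets of 8061 genes for this comparison, 200 of them altered, the fit called 23.9% at a log2 change of 1, 78.2% at 2 and 87.7% at 3, with 2.89% of calls false. These rates describe the simulated sets only, and whether they hold for these arrays was not tested. Other scalings, offsets, filters, probe set rules, fits with a replicate block, with all 6 arrays or without the trend, and fits without each array were tried. Figures were drawn with matplotlib 3.10.9.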

Additional observations from a re-analysis of the deposited data

Results flagged for a closer look

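The 18 probe sets of the spiked hybridisation controls, which enter no gene comparison, were brighter with MT1-MMP siRNA than in mock cells. Their median fold over the mock mean was 2.30 on MT1-MMP siRNA replicate 1 and 1.29 on replicate 2, against 0.927 and 1.07 on the mock arrays. Whether this bears on any gene was not tested.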

How the results depend on the processing

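The number of called genes was 8 in the main setting. It was 5 after quantile normalization, 13 with every probe set tested on its own and 4 without the intensity trend. It was 0 with no filter (717 higher and 770 lower at an unadjusted p under 0.05 in limma, lowest adjusted p 0.209) and 0 with all 6 arrays (544 and 617, lowest adjusted p 0.0526). It was between 6 and 11 under the other scalings, offsets, the filter at the 60th percentile and the mean of probe sets. With 1 array left out a group holds a single array, so the number called then is not given. MMP14 lay between -1.96 and -1.33 when 1 array was left out.

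The replicate numbers do not pair the arrays by any label. The deviations of mock replicate 1 and MT1-MMP siRNA replicate 1 from their group means correlated at -0.179 across genes. With the replicate number as a block 54 genes were called, 37 higher and 17 lower, all 8 among them, and MMP14 had a log2 fold change of -1.65 and an adjusted p of 0.0212. With the crossed pairing as a block, chosen after seeing the data, 507 were called.

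Of 4294 values of single genes under an alternative, 4185 kept their direction and their side of the threshold, 41 passed it newly, 56 no longer passed it and 12 reversed. The reversed values were small. VIM was at -0.029 after quantile and -0.0040 after cyclic loess normalization. With the mean of probe sets DICER1 was at -0.25, HK2 at -0.18 and THY1 at 0.25. With 1 array left out, ITGB3 lay between -0.057 and 0.52, PCSK6 between -0.36 and 0.14, PCSK5 between -0.42 and 0.087, FURIN between -0.070 and 0.16 and TIMP2 between -0.00098 and 0.45. Of 688 list medians 29 changed sign, 22 of them from a median smaller than the spread between replicates. Those 22 were in the mesenchymal and epithelial, inflammatory, RNA interference, focal adhesion, serine protease and TGF-beta lists, and 7 were in lists with a larger median. The neural and cancer-testis list was at 0.025 with no filter. The G1 list was at 0.37 with the filter at the 60th percentile, 0.031 with every probe set and 0.082 with all 6 arrays. With 1 array left out, the antioxidant list lay between -0.0060 and 0.17, the translation list between -0.36 and 0.028 and the oxidative phosphorylation list between -0.0032 and 0.097. The cause was not tested. With 2 arrays a group, differences near 1 on the log2 scale are seldom called.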
